A study of Homo sapiens with 12 samples.

Results

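STING1, CGAS, TBK1, IRF3, IFI16, TREX1 and IKBKE, genes of the pathway that senses DNA in the cytosol, were followed by RNA sequencing in human breast cancer cells in which MUC1 had been silenced. The genes were found by their Ensembl identifiers, STING1 under its older name TMEM173, and all 7 had a line among the 58037 lines of the count table. They were selected on their known roles together with fold changes of MUC1shRNA against CshRNA already measured in these libraries, among them that of STING1. Their values are therefore given as a description, with fold changes and standard errors (SE) but without p-values.

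The cells were the established human lines BT-549 and SUM149, both from triple-negative breast tumours, which lack estrogen receptor, progesterone receptor and HER2. Cells of each line stably carried MUC1shRNA, a short RNA hairpin against MUC1-C, the C-terminal subunit of the mucin MUC1, or CshRNA, a control hairpin, so all groups share a stable transfection. The 4 groups were BT-549 with MUC1shRNA, BT-549 with CshRNA, SUM149 with MUC1shRNA and SUM149 with CshRNA, with 3 libraries each. BT-549 was grown in RPMI1640 and SUM149 in Ham's F-12 with hydrocortisone, both with serum and insulin, so a difference between the lines cannot be told apart from their media. In 1 label field the BT-549 controls are called vector. The labels give 3 sets of RNA per group but no separate transfections, so the p-values below cover a spread between libraries that may be technical.

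Cytosolic DNA is bound by cGAS, the product of CGAS, which makes the second messenger cGAMP. cGAMP binds STING, an adaptor in the membrane of the endoplasmic reticulum, which moves to the Golgi and brings together the kinase TBK1, or its relative IKK-epsilon (the product of IKBKE), and the transcription factor IRF3. Phosphorylated IRF3 switches on interferon beta and other antiviral genes, and STING is often expressed at low levels in tumour cells.

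Totals ran from 16373893 to 21248768 counts in BT-549 MUC1shRNA libraries, 16332364 to 20745835 in BT-549 CshRNA libraries, 7931614 to 9623924 in SUM149 MUC1shRNA libraries and 19392422 to 24140623 in SUM149 CshRNA libraries. In SUM149 the control libraries were thus 2.44 times as deep on average. MUC1 itself had 3.60 to 6.02 CPM (CPM is the count scaled to library size by TMM over the 12 libraries) in BT-549 MUC1shRNA libraries against 51.9 to 54.3 CPM in CshRNA libraries, and 0.334 to 1.06 CPM against 12.1 to 16.6 CPM in SUM149. Of the markers that define the lines, EPCAM averaged 0.0368 CPM in BT-549 MUC1shRNA libraries and 0.287 CPM in CshRNA libraries, so this epithelial marker was near 0 in BT-549, whereas VIM, a mesenchymal filament protein, averaged 1558 and 1518 CPM there. The summed level of 5 mesenchymal markers, VIM among them, was 2582 to 2843 CPM with MUC1shRNA and 2467 to 2627 CPM with CshRNA in BT-549. In SUM149 it was 55.8 to 62.1 CPM against 64.7 to 75.9 CPM. Of these markers, PDGFRB and DCN had too few counts to be tested in BT-549. EPCAM averaged 445 CPM with MUC1shRNA and 402 CPM with CshRNA in SUM149. The other epithelial markers did not all follow EPCAM in BT-549. The summed level of 6 such markers was 807 to 1046 CPM with MUC1shRNA and 328 to 382 CPM with CshRNA there, against 1774 to 1850 CPM and 1821 to 1847 CPM in SUM149. The keratin genes KRT8, KRT18 and KRT5 rose with MUC1shRNA in BT-549, by 2.66 (SE 0.08), 1.17 (SE 0.11) and 0.39 (SE 0.11) on the log2 scale, with edgeR adjusted p of 1.3e-07, 5.4e-05 and 0.021. In SUM149 KRT5 fell (-0.99, SE 0.07) and KRT14 rose (1.11, SE 0.33), with edgeR adjusted p of 6.0e-08 and 0.011. These 4 keratins are named after their values were seen. KRT8 and KRT18 have many processed pseudogenes, so how their reads were shared out is uncertain. ESR1, the estrogen receptor, averaged at most 4.88 CPM in any group, and ERBB2, which encodes HER2, averaged 36.6 to 58.6 CPM over the groups. With MUC1shRNA in SUM149, ESR1 rose (1.09, SE 0.20) and ERBB2 fell (-0.67, SE 0.08), with edgeR adjusted p of 3.6e-04 and 9.9e-06. In BT-549 ESR1 had too few counts to be tested, and ERBB2 was at -0.06 (edgeR adjusted p = 0.49). These receptor changes are also named after their values were seen. Of 11 leukocyte markers, CD3E and MS4A1 were at 0 in every library, and the summed level of all 11 was 3.04 to 5.01 CPM with MUC1shRNA and 4.98 to 6.61 CPM with CshRNA in BT-549, and 6.14 to 7.90 CPM against 9.08 to 10.0 CPM in SUM149. Of 5 endothelial markers, the summed level was 14.9 to 18.4 CPM with MUC1shRNA and 7.36 to 8.25 CPM with CshRNA in BT-549, and 19.8 to 21.8 CPM against 37.1 to 41.0 CPM in SUM149, where PECAM1 averaged 9.72 CPM against 28.4 CPM and CDH5 had at most 1 count per library. The part of these markers in the results was not tested.

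STING1 (ENSG00000184584.12, GRCh38 chromosome 5, 139475534 to 139482935, minus strand) encodes the adaptor itself. In BT-549 it had 0.669, 0.826 and 0.803 CPM in the MUC1shRNA libraries, against 6.22, 5.57 and 5.38 CPM in the CshRNA libraries. These rest on 13, 14 and 12 counts with MUC1shRNA and on 111, 84 and 103 counts with CshRNA. In SUM149 it had 4.01, 4.46 and 5.40 CPM in the MUC1shRNA libraries, against 14.9, 15.5 and 13.8 CPM in the CshRNA libraries. In either line the highest MUC1shRNA library was below the lowest control. The log2 fold change was -2.90 (SE 0.19) in BT-549 and -1.65 (SE 0.14) in SUM149, with mean levels 7.47 times and 3.19 times as high in the controls. Ranked by fold change, it was the 11th lowest of 13200 tested genes in BT-549 and the 421st lowest of 14178 in SUM149. This fold change was known when the genes were chosen, so the ranks are a description only. In bulk RNA, fewer cells that express a gene and less RNA per cell cannot be told apart. The order of the groups was SUM149 CshRNA at 14.7 ± 0.872 CPM, BT-549 CshRNA at 5.72 ± 0.439, SUM149 MUC1shRNA at 4.62 ± 0.708 and BT-549 MUC1shRNA at 0.766 ± 0.0847 (SD, n = 3 each). BT-549 CshRNA and SUM149 MUC1shRNA libraries overlapped, and the other neighbours in this order did not.

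**Figure D1:**
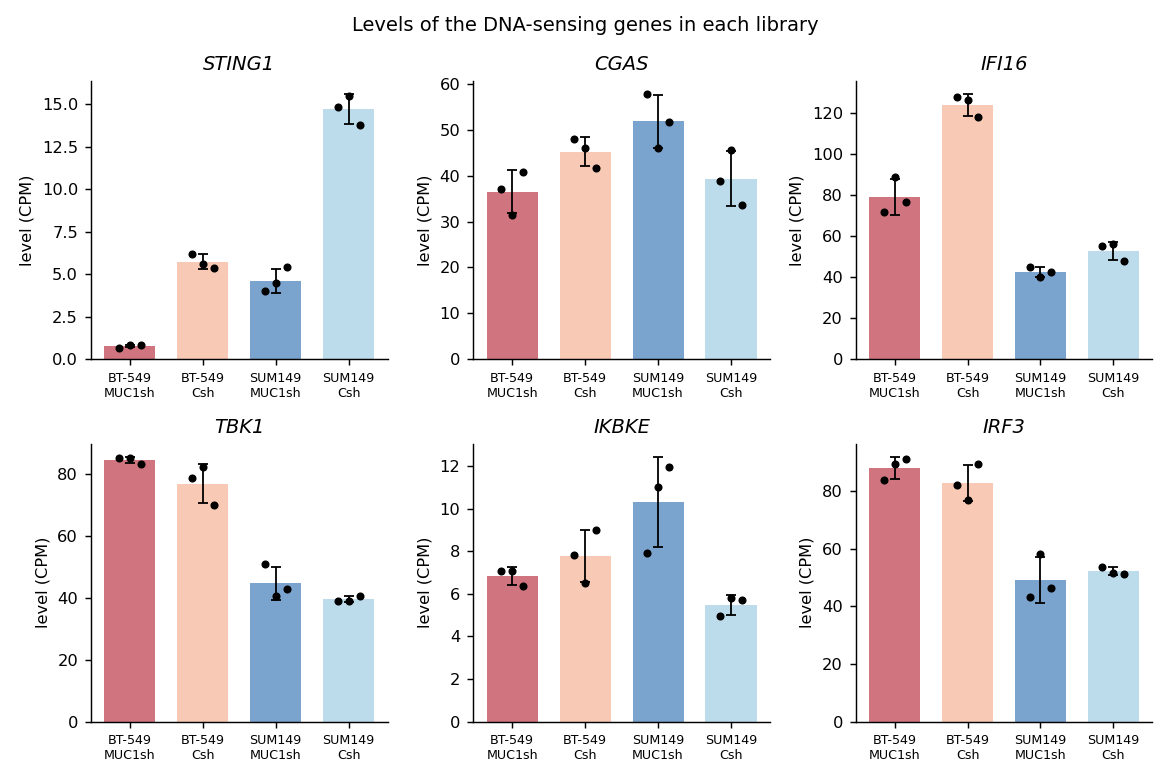
Level in CPM (vertical axes, from 0) of 6 DNA-sensing genes in the 4 groups, with MUC1sh for MUC1shRNA and Csh for CshRNA. Bars are means of 3 libraries, error bars are SD and points are libraries, and STING1 is lower with MUC1shRNA in both lines while the CGAS means of 36.5 and 51.9 CPM with MUC1shRNA lie on opposite sides of their controls at 45.3 and 39.4 CPM.

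CGAS (ENSG00000164430.15, chromosome 6, 73413515 to 73452276, minus strand), the DNA sensor that makes cGAMP, differed in opposite directions. In BT-549 it had 37.2, 31.6 and 40.8 CPM with MUC1shRNA, against 48.1, 46.0 and 41.8 CPM with CshRNA, a log2 fold change of -0.31 (SE 0.10). For SUM149 the values were 57.8, 46.1 and 51.8 CPM with MUC1shRNA, against 38.9, 45.5 and 33.7 CPM with CshRNA, a log2 fold change of 0.41 (SE 0.11). The groups did not overlap in either line, but the nearest libraries lay close together, at 40.8 and 41.8 CPM in BT-549 and at 46.1 and 45.5 CPM in SUM149. Over the 4 groups, every neighbouring pair in the order of CGAS levels overlapped. CGAS shares 4.33% of its exon bases with DDX43 on the opposite strand.

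IFI16 (ENSG00000163565.18, chromosome 1, 158999968 to 159055155, plus strand) encodes a nuclear and cytosolic DNA-binding protein that works with cGAS and STING. In BT-549 it had 71.9, 88.8 and 76.6 CPM with MUC1shRNA, against 128, 126 and 118 CPM with CshRNA. The SUM149 libraries gave 44.7, 40.1 and 42.6 CPM with MUC1shRNA, against 55.0, 56.0 and 47.7 CPM with CshRNA. Both MUC1shRNA groups lay below their controls without overlap. The log2 fold changes were -0.65 (SE 0.08) and -0.31 (SE 0.08), smaller in size than those of STING1. All 4 groups stood apart in its order, from BT-549 CshRNA at 124 CPM down to SUM149 MUC1shRNA at 42.5 CPM.

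TREX1 (ENSG00000213689.10, chromosome 3, 48465811 to 48467645, plus strand), the exonuclease that degrades cytosolic DNA before cGAS can bind it, had 0 counts in all 12 libraries. This cannot be read as absence. All 1515 of its exon bases, or 100% of them, lie within exons of ATRIP on the same strand, and ATRIP itself had 0 to 5 counts per library. Of 233 protein-coding genes whose exon bases all lie inside another gene on the same strand, 227 were at 0 in every library (97.4%), against 2557 of 19457 protein-coding genes without such an overlap on either strand (13.1%). TREX1 was therefore not measured, and no limit is given for it.

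TBK1 (ENSG00000183735.9, chromosome 12, 64451880 to 64502108, plus strand) is the kinase that STING recruits. It had 85.2, 85.1 and 83.3 CPM with MUC1shRNA in BT-549, against 78.6, 82.2 and 70.0 CPM with CshRNA, a log2 fold change of 0.13 (SE 0.07) with no overlap. In SUM149 TBK1 had 50.9, 40.6 and 42.8 CPM with MUC1shRNA, against 39.0, 39.1 and 40.6 CPM with CshRNA, where the groups overlapped (0.19, SE 0.09). These are differences of 9.86% and 13.1% of the control mean. An antisense gene, AC135279.3, overlaps 14.7% of the exon bases of TBK1.

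IKBKE (ENSG00000263528.7, chromosome 1, 206470476 to 206496889, plus strand) encodes the related kinase, which many cells make at lower levels and induce on inflammatory signals. In BT-549 it had 7.05, 7.08 and 6.35 CPM with MUC1shRNA, against 7.84, 6.502 and 8.98 CPM with CshRNA. The groups overlapped (-0.20, SE 0.14). In SUM149 it had 7.90, 11.03 and 11.95 CPM with MUC1shRNA, against 4.95, 5.82 and 5.71 CPM with CshRNA, without overlap. The log2 fold change there was 0.93 (SE 0.17), and the mean with MUC1shRNA was 1.88 times that of the controls. Per kilobase of exon and within each library, TBK1 exceeded IKBKE by a ratio of 3.63 ± 1.29 in SUM149 MUC1shRNA libraries and 5.77 ± 0.476 in SUM149 CshRNA libraries (SD, n = 3 each). In BT-549 this ratio was 9.88 ± 0.489 with MUC1shRNA and 8.09 ± 1.93 with CshRNA (SD, n = 3 each). The single ratios overlapped in BT-549, where they were 9.57 to 10.4 with MUC1shRNA and 6.21 to 10.1 with CshRNA, and not in SUM149, where they were 2.85 to 5.12 with MUC1shRNA and 5.35 to 6.28 with CshRNA.

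The start regions of both kinases and of IFI16 are shown because the kinase genes differed in their response and IFI16 was lower in both lines. The sequences are RefSeq's on GRCh38.p14, plus strand, from 250 bases before to 50 bases after a start, and 4 of the 7 genes had one there. Capitals mark a match to any of 6 motifs searched on both strands, which were the E-box CACGTG, the cAMP response element TGACGTCA, an AP-1 site TGANTCA, an IRF site GAAA-NN-GAAA, a STAT site TTCNNNGAA and an NF-kB site GGGA-NN-TTCC.
TBK1, chr12:64451870-64452169: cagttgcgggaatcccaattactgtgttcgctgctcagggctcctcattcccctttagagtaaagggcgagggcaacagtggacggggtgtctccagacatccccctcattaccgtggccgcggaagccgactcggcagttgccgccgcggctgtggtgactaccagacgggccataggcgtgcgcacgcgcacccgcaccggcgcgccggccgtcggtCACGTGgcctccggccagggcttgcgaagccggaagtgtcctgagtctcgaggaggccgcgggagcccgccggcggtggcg
IKBKE, chr1:206470226-206470525: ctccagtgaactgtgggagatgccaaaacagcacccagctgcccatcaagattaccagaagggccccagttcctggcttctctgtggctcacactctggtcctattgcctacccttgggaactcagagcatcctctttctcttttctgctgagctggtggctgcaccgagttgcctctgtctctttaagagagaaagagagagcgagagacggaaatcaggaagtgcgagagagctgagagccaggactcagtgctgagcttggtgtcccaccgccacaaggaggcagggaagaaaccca
IFI16 first start, chr1:159008741-159009040: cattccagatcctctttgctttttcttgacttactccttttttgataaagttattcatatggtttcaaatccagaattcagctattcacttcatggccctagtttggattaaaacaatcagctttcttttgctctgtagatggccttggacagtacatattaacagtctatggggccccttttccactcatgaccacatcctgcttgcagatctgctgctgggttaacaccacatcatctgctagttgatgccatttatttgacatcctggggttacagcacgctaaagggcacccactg
IFI16 second start, chr1:159009657-159009956: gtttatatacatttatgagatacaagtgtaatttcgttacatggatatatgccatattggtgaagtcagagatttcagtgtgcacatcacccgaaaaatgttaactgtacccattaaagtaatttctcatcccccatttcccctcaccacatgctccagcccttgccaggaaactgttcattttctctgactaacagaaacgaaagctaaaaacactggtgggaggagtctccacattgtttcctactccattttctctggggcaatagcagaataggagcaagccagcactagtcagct

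The TBK1 window had 68.3% G and C with 35 CG dinucleotides, and the IKBKE window 55.0% with 5, where the median of all 35116 such windows was 58.7% and 14. The IFI16 windows had 42.3% and 41.7% G and C, with 1 and 3 CG dinucleotides. Both IFI16 windows lie inside the gene as annotated in GENCODE release 29, which begins at base 158999968. The sequence around that base was not searched. The match in the TBK1 window is an E-box from position -31 to -26 relative to the start, a motif present in 7.26% of all windows. The IKBKE and IFI16 windows held none of the 6 motifs, which were present in 1.61% (NF-kB site) to 7.71% (AP-1 site) of all windows, the IRF site in 3.57%, the STAT site in 7.66% and the cAMP response element in 1.85%. The TREX1 window held an AP-1 match (TGAGTCA, position -3 to 4). A match is a description of these letters and not a site of binding.

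IRF3 (ENSG00000126456.15, chromosome 19, 49659569 to 49665875, minus strand) encodes the transcription factor at the end of the pathway. It had 83.7, 89.3 and 90.9 CPM with MUC1shRNA in BT-549, against 81.9, 76.7 and 89.2 CPM with CshRNA (0.09, SE 0.07). In SUM149 IRF3 had 43.1, 58.2 and 46.4 CPM with MUC1shRNA, against 53.7, 51.7 and 51.0 CPM with CshRNA (-0.07, SE 0.10). The groups overlapped in both lines. IRF3 was higher in BT-549 than in SUM149 in every library. It shares 19.3% of its exon bases with BCL2L12 on the opposite strand, and no source used here gives the strand setting of the counts. Of 18 protein-coding genes with all exon bases inside another gene on the opposite strand only, 15 were at 0 in every library (83.3%). Among protein-coding genes without such an overlap on either strand, 13.1% were at 0. Whether partial overlaps on the opposite strand, as in IRF3, lost counts was not tested.

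Between genes, levels are compared as CPM per kilobase of exon. On this scale STING1 stood at 0.199 in BT-549 MUC1shRNA libraries and 1.49 in CshRNA libraries, and at 1.2005 in SUM149 MUC1shRNA libraries and 3.82 in CshRNA libraries. CGAS stood at 8.79 and 10.9 in BT-549, and at 12.5 and 9.48 in SUM149, MUC1shRNA libraries first. By group mean, IRF3 had the highest value of the 6 counted genes in SUM149, at 13.0 with MUC1shRNA and 13.7 with CshRNA. It also led in BT-549 MUC1shRNA libraries at 23.2, and IFI16 led in BT-549 CshRNA libraries at 23.4. Some of these leads lay within the spread of libraries. In SUM149 MUC1shRNA libraries IRF3 was at 13.0 ± 2.09 and CGAS at 12.5 ± 1.41 (SD, n = 3 each). In BT-549 CshRNA libraries IFI16 was at 23.4 ± 0.984 and IRF3 at 21.8 ± 1.65 (SD, n = 3 each). Within each library, CGAS exceeded STING1 per kilobase by a ratio of 44.7 ± 8.33 in BT-549 MUC1shRNA libraries and 7.34 ± 0.266 in CshRNA libraries. In SUM149 that ratio was 10.6 ± 2.40 with MUC1shRNA and 2.47 ± 0.231 with CshRNA (SD, n = 3 each). The single ratios of the 2 groups did not overlap in either line, and all were above 1 in the controls too. This restates the STING1 difference, which was known when the genes were chosen.

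**Figure D2:**
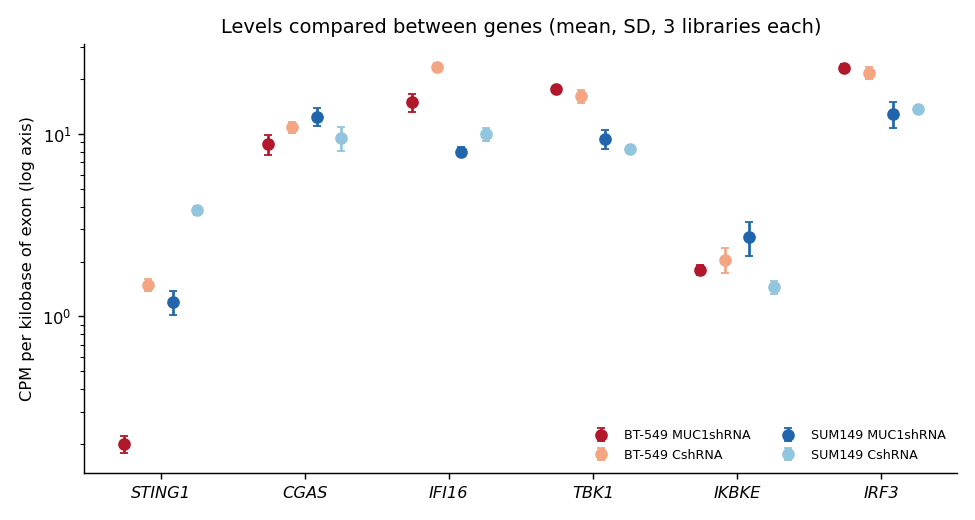
Level per length in CPM per kilobase of exon (vertical axis, logarithmic) of 6 genes in the 4 groups. Points are means of 3 libraries and error bars SD, and STING1 ranges from 0.199 in BT-549 MUC1shRNA to 3.82 in SUM149 CshRNA while CGAS stays between 8.79 and 12.5.

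Of the 7 genes, 6 had enough counts to enter the fit in each line. In BT-549 edgeR placed STING1, CGAS and IFI16 past the threshold as lower and 0 as higher, where 33.3% of all tested genes were past it. In SUM149 it placed STING1 and IFI16 as lower and CGAS and IKBKE as higher, where 56.5% of all tested genes were past it. In BT-549 the groups did not overlap for 4 of 6 genes, TBK1 with MUC1shRNA above and STING1, CGAS and IFI16 below, where this held for 47% of all tested genes, 23.8% above and 23.2% below. In SUM149 they did not overlap for 4 of 6 genes, CGAS and IKBKE above and STING1 and IFI16 below, where this held for 62.6% of all tested genes, 29.3% above and 33.3% below. Since the contrasts were known when the genes were chosen, nothing is read from these counts. Subtracting the SUM149 response from the BT-549 response gave a log2 difference of -1.24 (SE 0.23) for STING1, where 39.6% of 15649 genes were past edgeR's interaction test, -1.11 (SE 0.23) for IKBKE, -0.71 (SE 0.17) for CGAS, -0.33 (SE 0.12) for IFI16, -0.04 (SE 0.11) for TBK1 and 0.17 (SE 0.13) for IRF3.

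**Figure D3:**
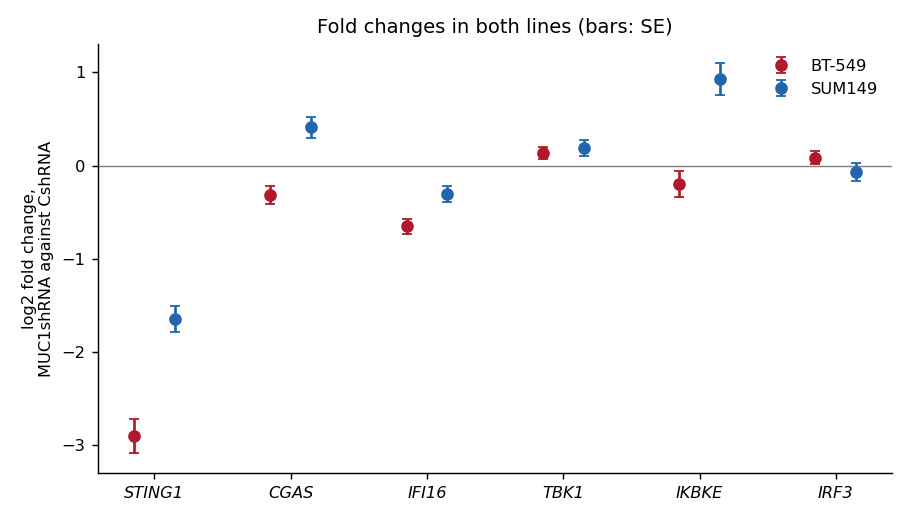
Log2 fold change of MUC1shRNA against CshRNA (vertical axis) of 6 genes, BT-549 in red and SUM149 in blue. Points are edgeR estimates and error bars their SE, and STING1 stands lowest at -2.90 and -1.65 while CGAS and IKBKE lie on opposite sides of 0 in the 2 lines.

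The genes whose levels were most like those of STING1 were taken by Pearson's r of log2(CPM + 1) over the 12 libraries, among 10727 genes. They were NPLOC4, a cofactor of the segregase p97 (r = 0.993), EYA4, a phosphatase and transcriptional coactivator (0.983), SDC3, the heparan sulfate proteoglycan syndecan-3 (0.976), CYP27B1, which activates vitamin D (0.973), and PIGX, an enzyme subunit of GPI anchor synthesis (0.971). NPLOC4 averaged 82.6 CPM in BT-549 MUC1shRNA libraries and 139 CPM in CshRNA libraries, and 133 CPM against 197.5 CPM in SUM149, so it shared the order of STING1 over a narrower range. For CGAS they were RRP1B (0.906), LGR4, a receptor for R-spondins (0.886), the chaperonin subunit CCT6A (0.883), DHX33 (0.868) and DIPK2A (0.867). These correlations are descriptions over libraries that fall into 4 groups and share line and hairpin.

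Around these genes, 129 further genes of the pathway were sorted into 6 lists. In BT-549, 43 of 108 tested members changed (39.8%), 11 higher and 32 lower with MUC1shRNA, at a median log2 fold change of -0.09, beside 33.3% of all 13200 tested genes, 16.8% higher and 16.5% lower, at a median of -0.01. In SUM149, 66 of 106 changed (62.3%), 40 higher and 26 lower, at a median of 0.04, beside 56.5% of 14178 tested genes, 27.6% higher and 28.9% lower, at a median of -0.03. Changes are at an adjusted p below 0.05 in edgeR's quasi-likelihood test, Benjamini-Hochberg over all genes tested. The BT-549 counts were lower without some single libraries. Without MUC1shRNA 1, 24 pathway genes and 2716 of all genes were past the test, without MUC1shRNA 3, 30 and 3011, and without CshRNA 1, 31 and 3296, against 43 and 4398 with all 6. MUC1shRNA 2 and CshRNA 3 differed most from their replicates and were left out together in 1 further fit, after seeing the data. Without both, 54 pathway genes and 5325 of all genes were past the test. All pathway counts in BT-549 below are from all 6 libraries.

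Among DNA sensors and their cofactors, 1 of 16 tested members rose and 7 fell in BT-549 (median -0.09), and 7 rose and 1 fell in SUM149 (median 0.01). This is 50% in either line, beside 33.3% of all tested genes in BT-549 and 56.5% in SUM149. DHX9, a helicase that unwinds DNA and RNA, had 525, 517 and 527 CPM with MUC1shRNA in BT-549, against 601, 604 and 607 CPM with CshRNA (-0.21, SE 0.04, edgeR adjusted p = 0.0063). In SUM149 DHX9 had 493, 438 and 472 CPM with MUC1shRNA, against 262, 253 and 275 CPM with CshRNA (0.84, SE 0.06, edgeR adjusted p = 2.0e-07). The difference between its responses was -1.04 (edgeR adjusted p = 8.7e-08). POLR3A, the largest subunit of RNA polymerase III, which copies cytosolic AT-rich DNA into RNA, fell in BT-549 (-0.28, SE 0.05) and rose in SUM149 (0.45, SE 0.07), while POLR3B, its partner subunit, fell in both (-0.31, SE 0.07, and -0.23, SE 0.09). XRCC5, the DNA end-binding protein Ku80, rose in SUM149 (0.40, SE 0.06) and was at -0.07 in BT-549 (edgeR adjusted p = 0.24). RAD50, a part of the MRE11 complex, rose in BT-549 (0.22, SE 0.06), but 79.7% of its exon bases lie in another gene on the same strand. Without MUC1shRNA 1 in BT-549 the edgeR adjusted p was 0.069 for RAD50 and 0.0504 for POLR3B, and that of POLR3B in SUM149, 0.046 with all libraries, reached 0.23 without MUC1shRNA 2. AIM2, ZBP1, PYHIN1 and MNDA had too few counts to be tested in either line.

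Among nucleases and genes that remove or carry cGAMP, 2 of 19 tested members rose and 3 fell in BT-549 (median -0.15), and 6 rose and 4 fell in SUM149 (median 0.09). The shares were 26.3% in BT-549 and 52.6% in SUM149, beside 33.3% and 56.5% of all tested genes. SMPDL3A, a phosphodiesterase that degrades cGAMP, had 3.50, 3.48 and 3.81 CPM with MUC1shRNA in BT-549, against 0.952, 1.19 and 0.835 CPM with CshRNA (1.86, SE 0.20, edgeR adjusted p = 1.4e-04). In SUM149 it fell (-0.57, SE 0.22, edgeR adjusted p = 0.039), a call that was lost under 5 of 14 alternatives, with an adjusted p of up to 0.17. FEN1, the flap endonuclease of DNA replication, had 130, 139 and 138 CPM with MUC1shRNA in SUM149, against 43.2, 41.3 and 53.4 CPM with CshRNA (1.58, SE 0.09, edgeR adjusted p = 1.1e-08). It was at -0.15 (SE 0.05) in BT-549 (edgeR adjusted p = 0.058), and the difference between its responses was -1.71 (edgeR adjusted p = 3.3e-08). LRRC8A, the obligate subunit of the volume-regulated anion channels through which cGAMP can pass, rose in SUM149 (1.00, SE 0.06) and was at -0.16 in BT-549 (edgeR adjusted p = 0.12). Over 15 alternatives in BT-549 the adjusted p was 0.035 to 0.23 for FEN1 and 0.033 to 0.37 for LRRC8A. For each gene, 13 of these were not past the test. LRRC8B rose in both lines (0.88, SE 0.23, and 0.46, SE 0.11), and LRRC8D fell in both (-0.55, SE 0.10, and -0.70, SE 0.07). The LRRC8B calls gave an edgeR adjusted p of 0.070 in BT-549 without MUC1shRNA 1 and of 0.055 in SUM149 when all 12 libraries were fitted together. SLC19A1, a folate carrier that imports cGAMP, fell in BT-549 (-0.46, SE 0.07), and the lysosomal nuclease DNASE2 fell in SUM149 (-0.76, SE 0.09).

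Genes that move, modify or remove the STING protein changed in 10 of 25 tested members in BT-549, 3 higher and 7 lower (median -0.09), and in 19 of 26 in SUM149, 14 higher and 5 lower (median 0.23). That is 40% and 73.1% of them, beside 33.3% and 56.5% of all tested genes. In BT-549, INSIG1, a sterol-regulated protein of the endoplasmic reticulum membrane, rose by 0.58 (SE 0.06), and YIPF5, which helps STING leave the endoplasmic reticulum, by 0.55 (SE 0.08). STIM1, a calcium sensor that holds STING in the endoplasmic reticulum, fell by 0.40 on the log2 scale (SE 0.08) in BT-549 and rose by 0.28 (SE 0.07) in SUM149. ZDHHC7 and ZDHHC3, palmitoyltransferases that act on STING in the Golgi, rose in SUM149 (0.37, SE 0.08, and 0.73, SE 0.06), and ZDHHC7 fell in BT-549 (-0.31, SE 0.05). NPC1, a lysosomal cholesterol transporter that takes part in STING turnover, had 321, 289 and 291 CPM with MUC1shRNA in SUM149, against 159, 149 and 165 CPM with CshRNA (0.94, SE 0.07, edgeR adjusted p = 1.0e-07). ULK1, an autophagy kinase that can phosphorylate STING, had 10.3, 14.9 and 11.95 CPM with MUC1shRNA in SUM149, against 33.4, 36.5 and 31.1 CPM with CshRNA (-1.43, SE 0.12, edgeR adjusted p = 5.8e-07). It was at 0.0030 in BT-549 (edgeR adjusted p = 0.99). TRIM29, a ligase of STING, fell in SUM149 (-0.58, SE 0.08) and was too low to be tested in BT-549. INSIG1 was also past the test in SUM149 (0.23, SE 0.09, edgeR adjusted p = 0.044), and lost that call under 6 of 15 alternatives, with an adjusted p of up to 0.19.

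**Figure D4:**
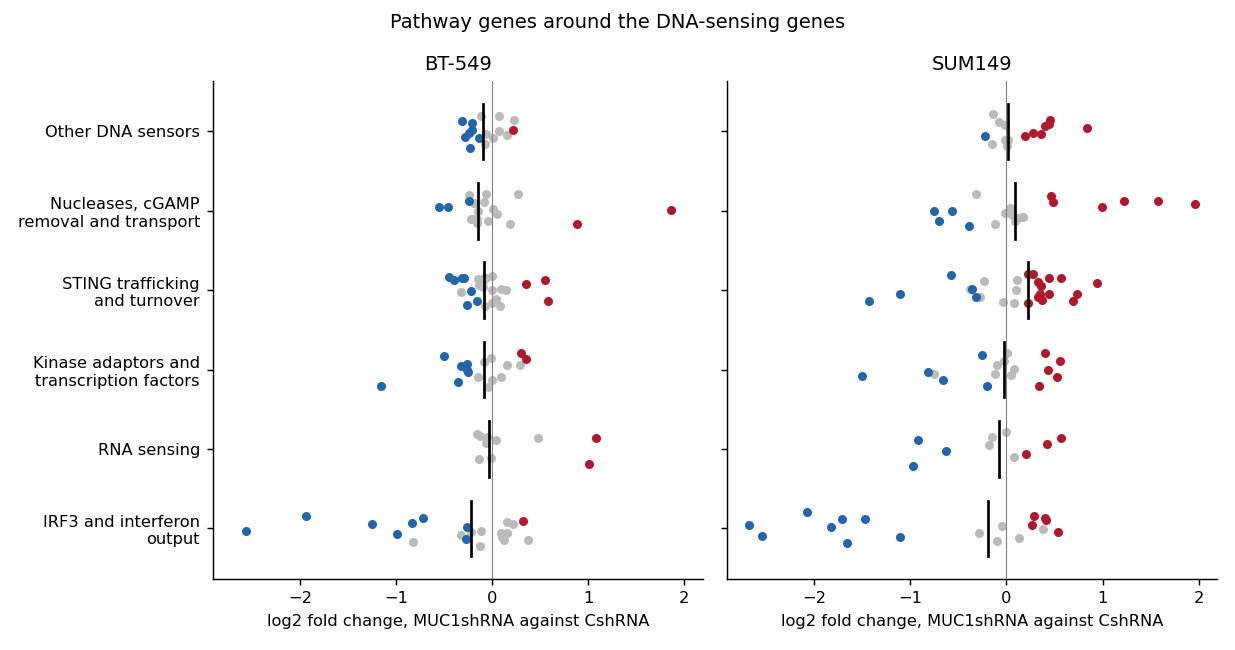
Log2 fold change of MUC1shRNA against CshRNA (horizontal axes) of the tested members of 6 pathway lists (rows) in BT-549 (left) and SUM149 (right). Red marks genes that rose, blue genes that fell and grey genes not past edgeR's test, and black lines are medians, which for STING trafficking and turnover lie at -0.09 in BT-549 and 0.23 in SUM149.

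Adaptors of the kinases and partner transcription factors changed in 9 of 17 members in BT-549, 2 higher and 7 lower (median -0.09), and in 10 of 17 in SUM149, 5 higher and 5 lower (median -0.02). As shares, 52.9% changed in BT-549 and 58.8% in SUM149, beside 33.3% and 56.5% of all tested genes. IRF1, an interferon-inducible transcription factor, rose in both lines (0.30, SE 0.05, and 0.56, SE 0.12), and so did OPTN, a ubiquitin-binding adaptor of TBK1 (0.35, SE 0.06, and 0.33, SE 0.09). IRF1 shares 22.003% of its exon bases with C5orf56 on the opposite strand. IRF5, a further interferon regulatory factor, fell in both lines (-1.16, SE 0.40, and -1.50, SE 0.18). In BT-549 IRF5 rested on 7, 7 and 12 counts with MUC1shRNA, against 20, 24 and 15 counts with CshRNA, and its edgeR adjusted p of 0.048 reached 0.18 without MUC1shRNA 1. The IkB kinase IKBKB fell in both (-0.32, SE 0.06, and -0.26, SE 0.08), with an edgeR adjusted p of up to 0.052 in SUM149, reached without MUC1shRNA 3. CHUK, its partner kinase, and TRAF2, a ubiquitin ligase adaptor, fell in BT-549 (-0.25, SE 0.07, and -0.36, SE 0.08) and rose in SUM149 (0.52, SE 0.07, and 0.44, SE 0.08). Leaving out 1 BT-549 library gave an edgeR adjusted p of up to 0.072 for CHUK (without CshRNA 1), and of 0.055 for TRAF2 and 0.053 for STAT6 (both without MUC1shRNA 1). STAT6, a transcription factor that STING can recruit, fell in BT-549 (-0.26, SE 0.06), and AZI2, an adaptor of TBK1, fell in SUM149 (-0.66, SE 0.09), and 55.4% of the exon bases of AZI2 lie in CMC1 on the opposite strand. RELA, the NF-kB subunit p65, fell in SUM149 (-0.21, SE 0.08, edgeR adjusted p = 0.040), a call lost under 5 of 15 alternatives with an adjusted p of up to 0.18, and was at -0.15 in BT-549 (edgeR adjusted p = 0.076). IRF7, the amplifying interferon regulatory factor, was not past the test in BT-549 (0.29, edgeR adjusted p = 0.52) or SUM149 (-0.76, edgeR adjusted p = 0.056). Its adjusted p in SUM149 was 0.018 to 0.26 over 14 alternatives, 12 of which were not past the test.

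The branch that senses RNA uses the same kinases and IRF3. Of 10 tested members 2 rose and 0 fell in BT-549 (median -0.03), and 3 rose and 3 fell in SUM149 (median -0.08). So 20% changed in BT-549 and 60% in SUM149, beside 33.3% and 56.5% of all tested genes. TLR3, the endosomal receptor of double-stranded RNA, had 6.79, 7.61 and 7.36 CPM with MUC1shRNA in BT-549, against 3.08, 4.11 and 3.08 CPM with CshRNA (1.09, SE 0.15, edgeR adjusted p = 6.4e-04). IFIH1, the RNA sensor MDA5, rose there by 1.01 (SE 0.23, edgeR adjusted p = 0.0086). In SUM149 both were not past the test (-0.18 and 0.08), and TRIM25 and RNF135, ligases that activate the RNA sensor RIG-I, fell (-0.97, SE 0.07, and -0.63, SE 0.11). TICAM1, the adaptor of TLR3, and EIF2AK2, the RNA-dependent kinase PKR, rose in SUM149 (0.57, SE 0.10, and 0.42, SE 0.08). MAVS, the mitochondrial adaptor that parallels STING, was at -0.13 (SE 0.06) in BT-549 and -0.15 (SE 0.08) in SUM149, with an edgeR adjusted p of 0.14 and 0.11. In SUM149 its adjusted p was 0.012 to 0.45 over 15 alternatives, 12 of which were not past the test.

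Among the output genes of IRF3 and interferon, 1 rose and 8 fell of 21 tested in BT-549 (median -0.22), and 5 rose and 8 fell of 18 tested in SUM149 (median -0.19). Changed genes were 42.9% in BT-549 and 72.2% in SUM149, beside 33.3% and 56.5% of all tested genes. IFNB1, interferon beta, had 0 counts in the 6 BT-549 libraries, 0, 0 and 1 in the SUM149 MUC1shRNA libraries and 0, 3 and 1 in the SUM149 CshRNA libraries. A count of 0 allows up to 3 counts, or 0.154 to 0.201 CPM in BT-549 MUC1shRNA libraries and 0.157 to 0.199 CPM in BT-549 CshRNA libraries, for counting error only. IFIT1, an antiviral RNA-binding protein, had 0.708, 0.669 and 0.964 CPM with MUC1shRNA in SUM149, against 5.41, 4.78 and 5.20 CPM with CshRNA (-2.68, SE 0.24, edgeR adjusted p = 7.0e-07). In BT-549 IFIT1 had 1.44, 1.89 and 1.14 CPM with MUC1shRNA, against 3.02, 3.32 and 1.78 CPM with CshRNA, where the groups overlapped (-0.84, SE 0.28, edgeR adjusted p = 0.046). That call was lost under 6 of 14 alternatives, with an adjusted p of up to 0.14. IFI44L, an interferon-induced gene, fell in SUM149 (-1.83, SE 0.16) to 2.51 ± 0.150 CPM with MUC1shRNA, against 9.002 ± 0.510 CPM with CshRNA (SD, n = 3 each). MX2 and OAS1, antiviral effectors, fell in BT-549 (-2.57, SE 0.42, and -1.94, SE 0.37) at low counts, 4, 2 and 2 with MUC1shRNA against 16, 11 and 23 with CshRNA for MX2.

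OAS3, which makes 2-5A, fell in BT-549 (-0.72, SE 0.16) and rose in SUM149 (0.41, SE 0.08). ISG15, a ubiquitin-like protein, had 14.2, 13.9 and 11.8 CPM with MUC1shRNA in BT-549, against 18.6, 14.7 and 16.6 CPM with CshRNA (-0.32, SE 0.11, edgeR adjusted p = 0.054). Over 15 alternatives there, ISG15 had an adjusted p of 0.029 to 0.19, and 11 were not past the test. In SUM149 it had 6.25, 7.35 and 6.65 CPM with MUC1shRNA, against 4.29, 4.11 and 5.71 CPM with CshRNA (0.54, SE 0.18, edgeR adjusted p = 0.020), and lost the call under 4 of 15 alternatives, with an adjusted p of up to 0.083. IFNAR1, a chain of the interferon receptor, rose in SUM149 (0.29, SE 0.06). STAT2, which carries the interferon signal, rose in BT-549 (0.32, SE 0.10, edgeR adjusted p = 0.035), with an adjusted p of up to 0.095 over 15 alternatives, 8 of which ended the call. The chemokine CXCL10 had 17, 15 and 8 counts with MUC1shRNA in BT-549, against 9, 13 and 9 with CshRNA (0.37, edgeR adjusted p = 0.46), and CCL5 was at 0.16 (edgeR adjusted p = 0.75). In SUM149 both had 0 to 2 counts per library and were not tested.

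Of 102 pathway genes tested in both lines, 5 rose in both and 9 fell in both, 12 fell in BT-549 and rose in SUM149, and 1, SMPDL3A, rose in BT-549 and fell in SUM149. These are 4.9%, 8.82%, 11.8% and 0.98% of them, beside 5.97%, 5.11%, 5.14% and 4.79% of all 12125 genes tested in both lines, and no test of these shares was made. The difference between the responses was past edgeR's test for 55 of 112 pathway genes (49.1%), 20 with the higher response in BT-549 and 35 with the higher response in SUM149, beside 39.6% of 15649 genes, 19.5% and 20.1%. The genes with the smallest adjusted p were FEN1, DHX9, NPC1 and LRRC8A, with differences of -1.71, -1.04, -1.07 and -1.14 (edgeR adjusted p from 3.3e-08 to 3.3e-07).

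**Figure D5:**
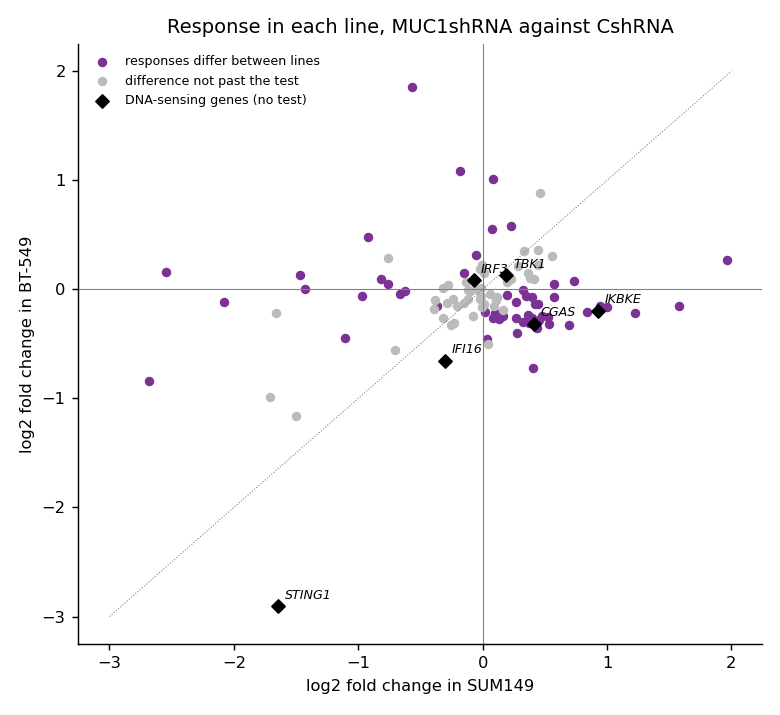
Log2 fold change of MUC1shRNA against CshRNA in BT-549 (vertical axis) and SUM149 (horizontal axis) for pathway genes tested in both lines. Purple points are genes whose responses differ between the lines in edgeR's test, grey points are the others, black diamonds are the DNA-sensing genes and the dotted line marks equal responses, with STING1 at -2.90 and -1.65 near the lower left.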

How the data were processed

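Per the labels' protocols, Trizol was used to extract RNA, and the library kit was TruSeq Stranded mRNA. The authors deposited raw read counts per Ensembl gene, 1 column per library, without normalization. STAR 2.7.0, CASAVA 1.8.2, DESeq2 1.24.0 and the build GRCh38.p7 are listed, with no roles, per the submitters' processing notes. No source used here gives the counter, its strand setting or the annotation release. Columns were matched to samples through the descriptions. Replicates differed by a chi-square per degree of freedom of 1.85 to 14.5, so none was a copy of another.

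Symbols, coordinates and exon lengths come from GENCODE release 29 on GRCh38, which held 57388 of the table's genes. The 45 lines of pseudoautosomal copies on the Y chromosome were left out. A separate edgeR 4.0.16 fit was made for each line (R 4.3.3, TMM, filterByExpr defaults, quasi-likelihood test), and the difference between the lines as an interaction over 12 libraries, with adjusted p-values over all genes tested. Levels are CPM on a TMM scale over the 12 libraries. Limits from a count of 0 cover counting error only. The fits were tested on simulated data. Of genes planted at 2-fold and 1.5-fold, 80.6% and 76.5% were called in BT-549 and 69.4% and 51% in SUM149, and 13 of 167 calls in BT-549 and 8 of 125 in SUM149 were of genes planted with no change. Planted genes numbered 98 at each fold among 13041 in BT-549, and 98 and 96 among 13963 in SUM149. Far more genes were past the test in the data, 4398 and 8017, so these shares do not carry over to the real fits. Named genes are the 7 genes, MUC1, 8 fixed pathway genes, in each list and line the 2 genes of smallest adjusted p in each direction, the 4 of smallest interaction p, and 5 of most similar pattern for STING1 and CGAS. The genes and lists were chosen with earlier results of these data known. Alternatives were other scalings (upper-quartile, RLE), other filters (none, or 5 CPM in at least 3 libraries), other tools (limma-voom 3.58.1, DESeq2 1.42.0), 1 fit of all 12 libraries, a replicate block and leaving out each library.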

Additional observations from a re-analysis of the deposited data

Results flagged for a closer look

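The responses of 29 of 47 named pathway genes differed between BT-549 and SUM149 in edgeR's interaction test, beside 39.6% of all 15649 genes tested. Most of these genes were named for a small adjusted p in a line or in the interaction, so nothing is read from their number. Values are the BT-549 response minus the SUM149 response on the log2 scale. A positive value means a higher response in BT-549. The largest edgeR adjusted p of these differences were 0.045 for STAT2, 0.024 for SLC19A1 and 0.020 for INSIG1. Among these genes, the difference was followed over the alternatives only for FEN1, DHX9, NPC1 and LRRC8A. The stability of the other differences was not tested. Among output genes the difference was 1.85 for IFIT1, -0.84 for ISG15, -1.11 for OAS3 and 0.39 for STAT2. Among adaptors and transcription factors it was 0.64 for AZI2, -0.76 for CHUK, -0.33 for STAT6 and -0.78 for TRAF2. Among nucleases and cGAMP genes it was 0.82 for DNASE2, -1.71 for FEN1, -1.14 for LRRC8A, -0.48 for SLC19A1 and 2.44 for SMPDL3A. Among DNA sensors it was -1.04 for DHX9, -0.71 for POLR3A and -0.46 for XRCC5. In the RNA sensing branch it was -0.54 for EIF2AK2, 0.94 for IFIH1, 0.63 for RNF135, -0.51 for TICAM1, 1.28 for TLR3 and 0.93 for TRIM25. Among genes that act on the STING protein it was 0.37 for INSIG1, -1.07 for NPC1, -0.66 for STIM1, 1.45 for ULK1, 0.49 for YIPF5, -0.64 for ZDHHC3 and -0.67 for ZDHHC7.

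All CGAS libraries with MUC1shRNA lay below the controls in BT-549 and above them in SUM149. The difference was -0.71 (SE 0.17) in the interaction fit, and no p is given for it because the gene was chosen with these contrasts known.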

How the results depend on the processing

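STING1 had log2 fold changes from -3.01 to -2.80 over 14 alternatives in BT-549, where it did not pass the filter of 5 CPM, and from -1.77 to -1.56 over 15 in SUM149. CGAS ranged from -0.40 to -0.21 and from 0.30 to 0.52, IFI16 from -0.78 to -0.59 and from -0.38 to -0.25, and IKBKE in SUM149 from 0.81 to 1.08. None of these changed sign. The log2 fold change of IRF3 in SUM149 lay on both sides of 0, from -0.19 to 0.02. Leaving out 1 library gave 24 to 42 pathway genes past the test in BT-549 and 56 to 69 in SUM149, 48 to 57 for the difference between the lines, and 2716 to 4470 and 6866 to 8306 of all genes. The lowest BT-549 values came without MUC1shRNA 1. Of 64 calls of named genes, 48 held under every alternative in which the gene could be tested. Calls of a difference between the lines are among them only for FEN1, DHX9, NPC1 and LRRC8A. Of 28 results of named genes not past the test, 8 were past it under some alternative. Upper-quartile scaling split the SUM149 pathway genes into 35 higher and 30 lower, where the main fit gave 40 and 26. It also moved the split of all genes, to 3411 higher and 4644 lower from 3920 and 4097. After thinning the SUM149 libraries to the shallowest total, chosen after seeing the data, 64 pathway genes and 7309 of all genes were past the test.

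With a replicate block by title number, 32 pathway genes were past the test in BT-549, 66 in SUM149 and 51 for the difference between the lines, and 2951 and 7934 of all genes. In their deviations from group means, same-numbered libraries correlated at 0.15, -0.39 and -0.32 in BT-549 and at -0.032, 0.011 and 0.082 in SUM149. The highest value in BT-549 was 0.487, between MUC1shRNA 2 and CshRNA 3. With 3 libraries per group, these values cannot decide whether the numbers pair the libraries. STAT2 and IRF5 in BT-549 had an edgeR adjusted p of 0.086 and 0.11 with the block.

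STING1 rested on only 12 to 14 counts in BT-549 MUC1shRNA libraries. Interferon beta was not detected in the BT-549 libraries at their depth, and the part of depth in this was not tested.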
